A study of Oryza sativa with 8 samples.

Results

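A set of 10 rice genes of light perception and heading date (the date of panicle emergence) was followed through the deposited lists of differentially methylated regions (DMRs), stretches whose cytosine methylation differed between a pair of libraries. The genes, by MSU locus identifier, are the phytochromes PHYA (LOC_Os03g51030), PHYB (LOC_Os03g19590) and PHYC (LOC_Os03g54084), the clock genes GI (LOC_Os01g08700) and ELF3 (LOC_Os06g05060), and the heading date genes Hd1 (LOC_Os06g16370), Ehd1 (LOC_Os10g32600), Ghd7 (LOC_Os07g15770), PRR37 (LOC_Os07g49460) and DTH8 (LOC_Os08g07740). They are genes of related function, looked up by locus in the 4 gene tables of the study. PHYB had been picked by the study from its differentially methylated genes, so the count of listed genes is not independent of the tables. Of the 10 genes, 1 was in a table, PHYB, against 19182 genes of the whole series in at least 1 table. Each of the other 9 genes is reported as having no listed DMR.

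Leaf DNA of mature plants was bisulfite sequenced in 8 libraries, 1 per condition. WYG7 is the wild type, a japonica rice, and Ox1 is 1 transgenic line in the WYG7 background that overexpresses OsNAR2.1, the partner protein of high-affinity nitrate transporters, from the OsNAR2.1 promoter. Both lines were raised from parent seed of high N content (HN) or low N content (LN), in a field given 300 kg N/ha (HN field) or in a field given no N fertilizer (NN field). Each comparison sets the LN against the HN library of 1 line in 1 field, and hyper was taken, from the design, to mean more methylation in LN. There was no replicate library, so no difference here has a replicate error, no test or p-value is reported. The lists hold no methylation levels, coverage or cytosine context, so the depth behind a DMR is unknown.

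Phytochromes are red and far-red light receptors that let a plant read day length and shade. In rice, which heads early in short days, the clock protein GI acts on Hd1, a CONSTANS-type protein, while Ghd7, PRR37 and DTH8 delay heading in long days and Ehd1, a B-type response regulator, promotes it. These inputs meet at florigen genes such as Hd3a, whose protein moves from leaf to shoot tip. Methylation of cytosines in a promoter is often linked to low transcription in plants, whereas methylation inside a gene body also occurs in active genes.

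PHYB carried a hyper-DMR in both Ox1 comparisons, one per field, and was listed in neither WYG7 comparison. A hyper-DMR in Ox1 was found in 46.8% of the 19182 listed genes for the HN field and in 17.2% for the NN field. Its interval in the tables, the gene body with a 1 kb promoter, was chr3:11019091-11028228 of IRGSP-1.0, 9138 bp long. In the HN field, the Ox1-DMR lay at chr3:11026351-11026626, was 276 bp long and covered 3.02% of the interval. In the NN field, the Ox1-DMR lay at chr3:11026502-11026627, was 126 bp long and covered 1.38% of the interval. The same end of the same stretch was thus called in plants of separate fields, from separate libraries.

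The overlap of the PHYB-DMRs was 125 bp, from 11026502 to 11026626, which is 99.2% of the NN field DMR and 45.3% of the HN field DMR. Their upper ends differed by 1 bp and their lower ends by 151 bp. Both lay more than 1 kb inside either end of the interval, at least 7260 bp from the lower end and at least 1601 bp from the upper end. The tables give no strand, but at these distances both DMRs were in the gene body and not in the promoter on either strand. Exon and intron positions were not used here. No other listed gene interval overlapped these DMRs.

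**Figure D1:**
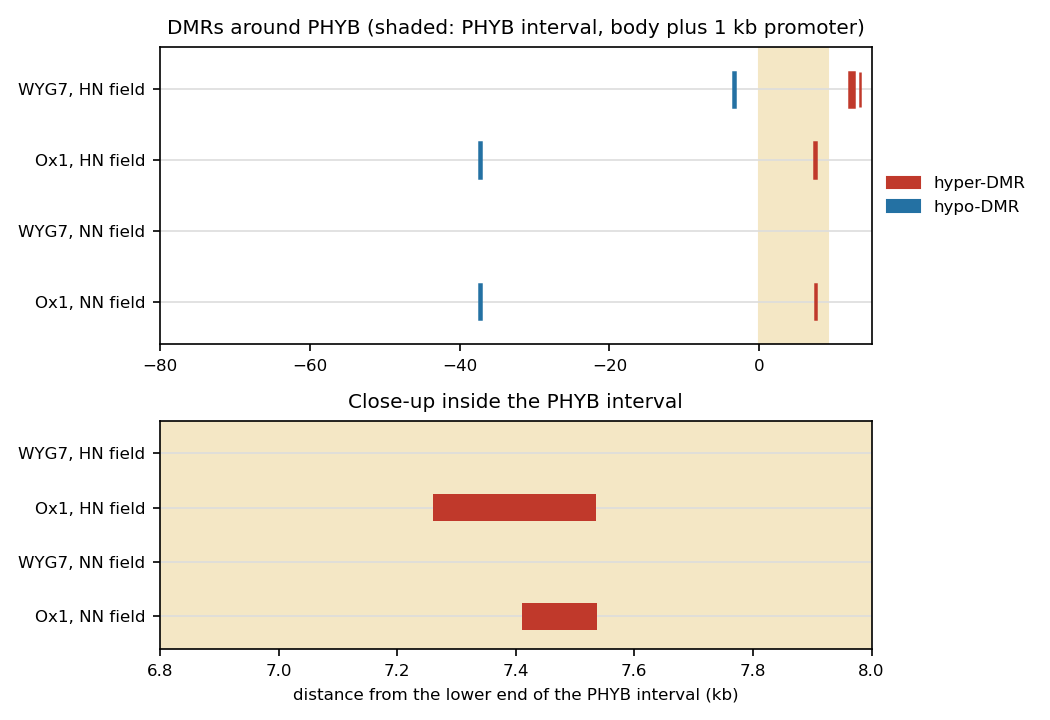
DMRs around PHYB in the 4 comparisons, with the distance from the lower end of the PHYB interval in kb on the horizontal axis, hyper-DMRs in red, hypo-DMRs in blue and the interval shaded. The upper panel shows that the interval held a DMR only in the Ox1 rows, and the lower panel enlarges the 276 bp and 126 bp hyper-DMRs, which end within 1 bp of each other.

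The majority direction of the Ox1-DMRs differed between the fields, while the direction at PHYB was listed as hyper in each. This holds only if hyper has the same meaning in both lists, which was not tested. In its text, the paper describes total methylation of Ox1 from LN seed as lower in the HN field and higher in the NN field. The majority directions here were the reverse, although the paper's counts of methylated cytosines were higher from LN seed in both fields. For DMRs, a measure other than total methylation, the paper's text itself reports mostly hyper-DMRs for Ox1 in the HN field. It reports mostly hypo-DMRs for Ox1 in the NN field, although a section heading states the opposite. Hyper-DMRs made up 75.4% of 25546 Ox1-DMRs when grown with N and 33.7% of 19765 without, so the PHYB-DMR followed the majority in the first field and the minority in the second. Of the 6664 Ox1 hyper-DMRs of the NN field, 24.9% overlapped an Ox1 hyper-DMR of the HN field, and 8.88% of the 19272 hyper-DMRs of the HN field overlapped one of the NN field. At least 99% of the shorter DMR was shared by 10.5% of the NN field hyper-DMRs. In length, the HN field DMR of PHYB was longer than 63.2% of its list, whose median was 227 bp, and the NN field DMR was longer than 11.7% of its list, whose median was 225 bp.

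In the series as a whole, 542 genes were in both Ox1 tables and in neither WYG7 table. PHYB was among 127 genes, 23.4% of these, with hyper-DMRs only in both fields. The most frequent pattern in the 542 genes was another one, hyper in the HN field and hypo in the NN field, with 242 genes. A further 74 genes were hypo in both fields, 35 were hypo in the HN field and hyper in the NN field, and 64 had both directions in a field. Of the 127 genes with the pattern of PHYB, 100 had a single DMR in each field and in 83 the DMRs of the fields overlapped. The PHYB interval was longer than 95.2% of the intervals of listed genes, whose median was 3705.5 bp, and a longer interval has more room for a DMR. Whether its length bears on the listing was not tested.

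In WYG7, no DMR touched the PHYB interval in either field. In the HN field, the nearest WYG7-DMRs were a hypo-DMR of 211 bp at chr3:11015603-11015813, 3278 bp below the interval, and a hyper-DMR of 709 bp at chr3:11031026-11031734, 2798 bp above it, in the neighbouring gene LOC_Os03g19600. In the NN field, they lay 80191 bp below and 21214 bp above the interval. A difference in WYG7 below the authors' limits would not be listed, so the absence of a DMR does not show equal methylation.

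A second place below PHYB was also called in Ox1 alone and in both fields. It was hypo, at chr3:10981686-10981934 in the HN field and at chr3:10981745-10981941 in the NN field, with 190 bp shared. This place was 37157 bp and 37150 bp from the PHYB interval and in no listed gene. Between the listed loci that flank PHYB, LOC_Os03g19452 and LOC_Os03g19600, the Ox1 lists thus held a hypo place and a hyper place in each field, and the WYG7 lists held 1 hypo-DMR (HN field) and 0 DMRs (NN field).

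PHYA, PHYC, GI, ELF3, PRR37, Hd1, Ghd7, DTH8 and Ehd1 were in none of the gene tables. Over the 40 combinations of gene and comparison, 2 were listed, both for PHYB in Ox1. The WYG7 table of the HN field held 0 of the 10 genes and the Ox1 table held 1 of 10. In the NN field, these numbers were again 0 of 10 and 1 of 10. The number of genes that could have been listed is not in the files. MSU loci are numbered along each chromosome, mostly in steps of 10, and 61923 such numbers fit below the highest listed ones. As a share of this count, the listed genes came to 17.3% (WYG7) and 17.0% (Ox1) for the HN field. For the NN field the shares were 17.7% and 12.7%. Some numbers may be unused, in which case the shares understate those of existing loci. At least 1053 listed loci are numbered between the steps and are not in the count, which raises the shares. Over all comparisons, the genes listed at least once came to 31.0% of the count, beside 1 of the 10 genes. Of the 19182 genes listed at least once, 56.0% were in the WYG7 and 54.9% in the Ox1 table of the HN field, with 57.0% and 40.9% for the NN field. With 10 genes, a count of 1 is read as a description.

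By role, 1 of the 3 photoreceptor genes was listed, 0 of the 2 clock genes, 0 of the 3 genes that delay heading (PRR37, Ghd7 and DTH8) and 0 of the 2 genes Hd1 and Ehd1. Beside the 31.0% of all locus numbers in at least 1 table, 1 of 3 photoreceptor genes is not read as a difference among the phytochromes. PHYA and PHYC, the other red and far-red light receptors, were not listed, and their own intervals are not in the tables.

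**Figure D2:**
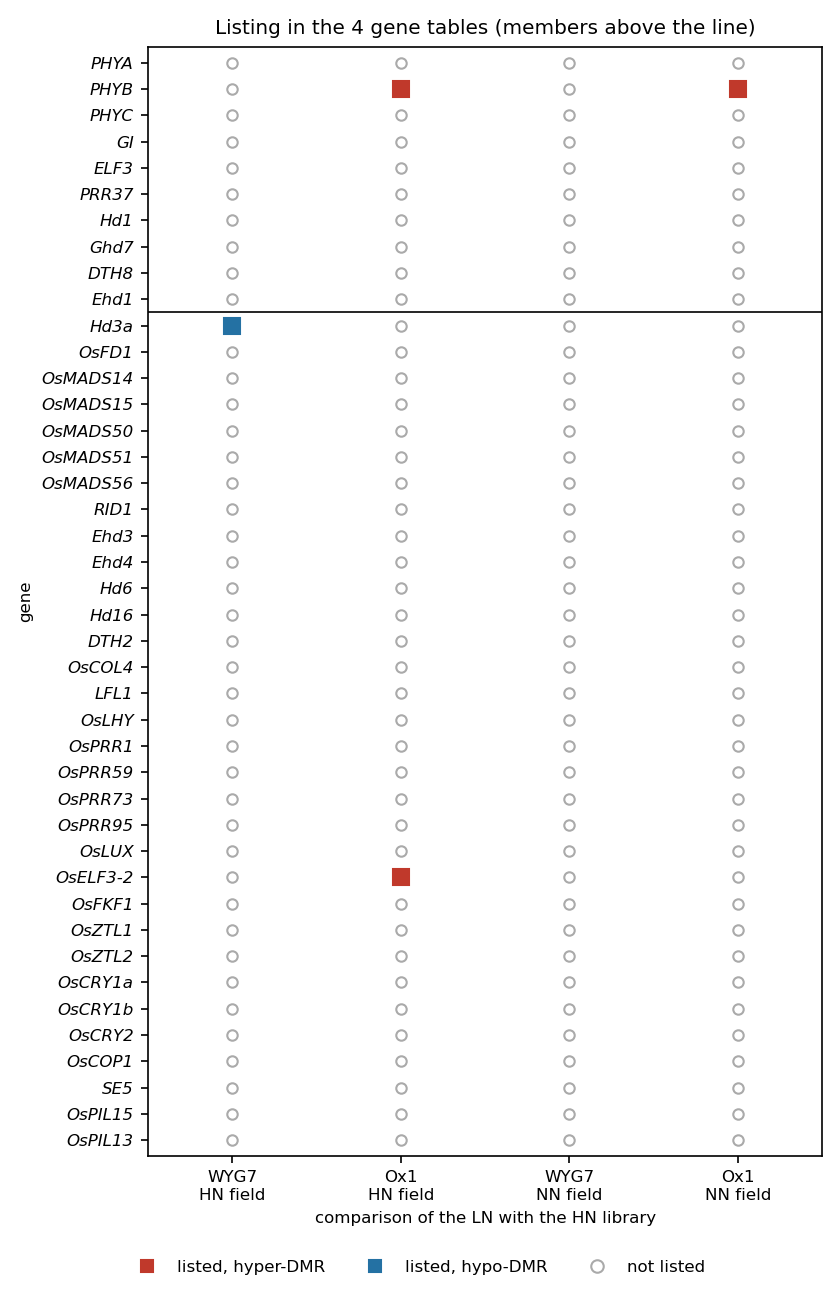
Listing of the 10 genes (above the line) and of 32 other light, clock and flowering genes in the 4 gene tables, with 1 row per gene and 1 column per comparison of the LN with the HN library. Filled squares mark a listed gene by the direction of its DMR and open circles a gene not listed, and 4 squares are filled, for PHYB (in both Ox1 columns), Hd3a and OsELF3-2.

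Other genes of these pathways were looked up in the same way. Of 32 further genes, the HN field tables held 1 for WYG7 and 1 for Ox1, and the NN field tables held 0 for either line. Beside these counts, the listed share of all locus numbers was 17.3% (WYG7) and 17.0% (Ox1) for the HN field. For the NN field the share was 17.7% (WYG7) and 12.7% (Ox1). The counts were not tested against these shares and are read as a description. Hd3a (LOC_Os06g06320), a florigen gene, had a hypo-DMR of 190 bp in WYG7 in the HN field at chr6:2942087-2942276, 176 bp from the upper end of its interval (chr6:2939004-2942452). OsELF3-2 (LOC_Os01g38530), the second ELF3 gene, had a hyper-DMR of 138 bp in Ox1 in the HN field at chr1:21644023-21644160. Of this DMR, 89 bp lay in the OsELF3-2 interval (chr1:21637031-21644111), and it also overlapped the interval of 1 other listed gene. Either DMR was within 1 kb of an interval end, so body and promoter could not be separated without the strand. None of the 32 genes had the pattern of PHYB. That pattern was found in only 0.662% of the genes in at least 1 table, so its absence here is not read as a result.

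The 30 pathway genes in no table included the meristem identity genes OsMADS14 and OsMADS15. By role, 1 of 4 florigen and meristem identity genes, 1 of 7 clock genes, 0 of 10 light signalling genes and 0 of 11 other regulators of Ehd1 or Hd3a were listed. The light signalling genes in no table included the cryptochromes, which detect blue light, and SE5, a heme oxygenase that makes the phytochrome chromophore. Together, 3 of the 42 genes were in at least 1 table, beside 31.0% of all locus numbers.

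For the 9 genes in no table the files give no interval. Their surroundings were bounded by the nearest listed loci of lower and of higher number. Positions followed the locus numbers in 99.5% of 19170 adjacent listed pairs, and around all 10 genes the 10 listed loci of lower number began before the 10 of higher number. These 9 segments were 14.5 kb to 249.8 kb long and held 27 DMRs outside all listed intervals, 18 hyper and 9 hypo. Each of the 9 segments held at least 1 such DMR. Every listed gene overlapped a DMR by at least 52 bp, and no gene of the other tables with a larger overlap than 51 bp was left out of a table. If that rule also held for these 9 genes, none of the 27 DMRs overlaps one of them, body or 1 kb promoter, by 52 bp or more.

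Of the 27 DMRs, 5 WYG7-DMRs (4 hyper) and 4 Ox1-DMRs (3 hyper) were from the HN field, and 10 WYG7-DMRs (9 hyper) and 8 Ox1-DMRs (2 hyper) from the NN field. In all lists, hyper-DMRs outside listed intervals were 47.4% (WYG7) and 72.9% (Ox1) for the HN field, with 63.3% and 38.9% for the NN field. Only the WYG7 segments of the HN field lay on the other side of 50% from their list, over 5 DMRs. Per 100 kb, the segments held 0.819 (HN field) and 1.64 (NN field) WYG7-DMRs, beside 3.62 and 3.19 over all sequence outside listed intervals. For Ox1 they held 0.656 and 1.31, beside 3.01 and 2.47. The segments were bounded by the lack of listed genes, which favours low values.

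**Figure D3:**
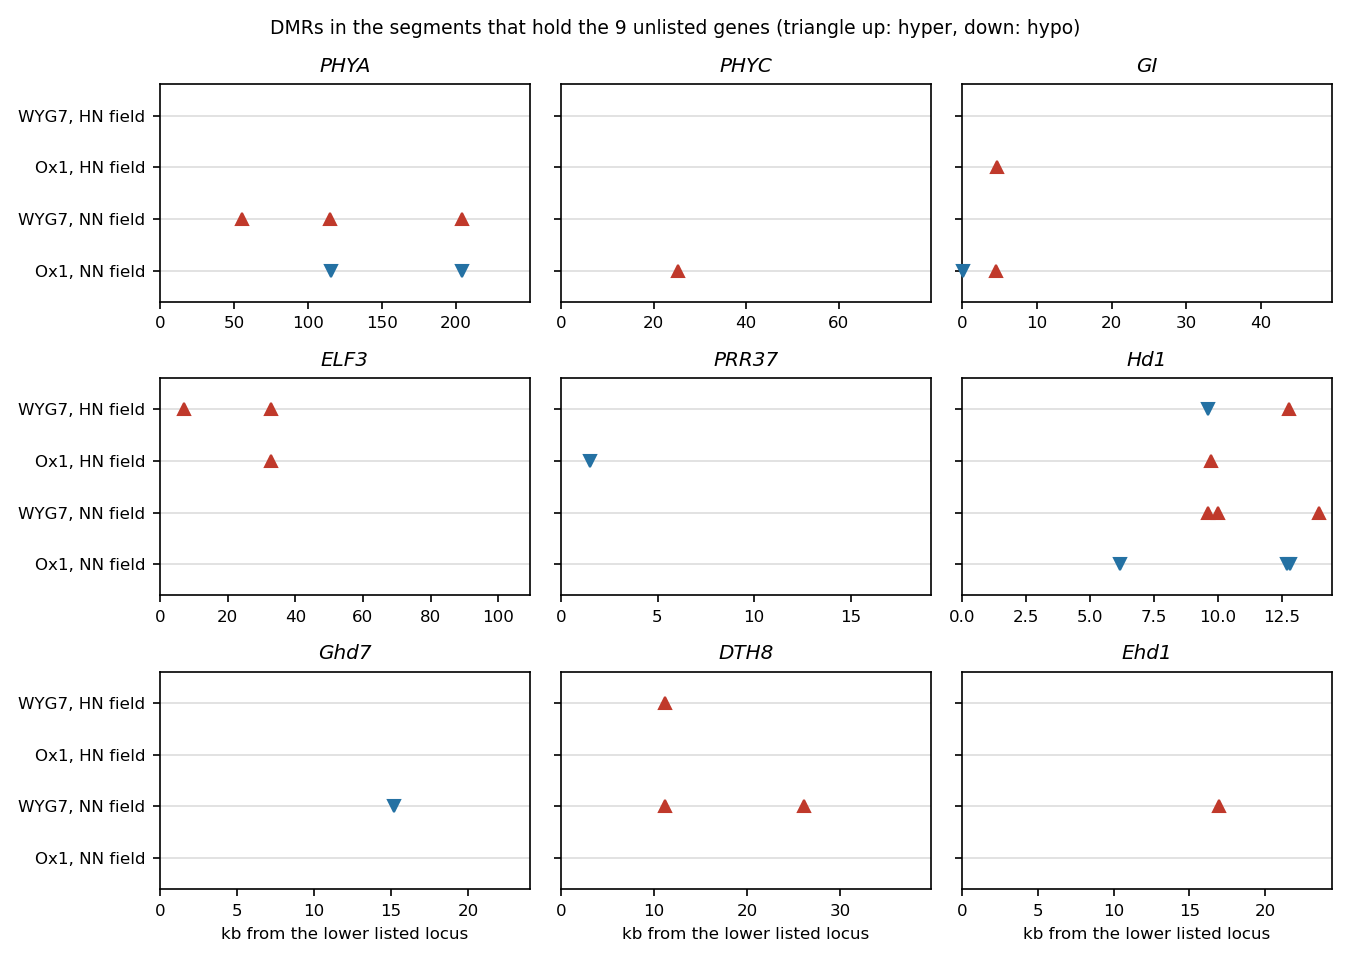
DMRs outside listed gene intervals in the segments that hold the 9 genes in no table, with the distance in kb from the listed locus of lower number on the horizontal axis and 1 row per comparison. Red triangles pointing up are hyper-DMRs and blue triangles pointing down hypo-DMRs, and the segment of Hd1 is the only one of the 9 with a DMR in all 4 rows.

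The segment of Hd1, the rice counterpart of CONSTANS, was the shortest at 14.5 kb, and Hd1 was the only locus number in it, between LOC_Os06g16360 and LOC_Os06g16380. It held 9 DMRs, and it was the only one of the 9 segments with a DMR in all comparisons. At both places described here the directions differed. At the lower one, WYG7 was hypo in the HN field at chr6:9344328-9344622 and hyper in the NN field at chr6:9344387-9344553, inside the former, while Ox1 was hyper in the HN field at chr6:9344510-9344672. Higher in the segment, WYG7 was hyper in the HN field at chr6:9347550-9347778 and Ox1 was hypo in the NN field at chr6:9347472-9347629 and chr6:9347626-9347759. In the NN field all 3 WYG7-DMRs of the segment were hyper and all 3 Ox1-DMRs hypo. The interval of Hd1 is not given, so these are DMRs of its segment. None is taken as a DMR of Hd1, which rests on the listing rule described above.

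The clock gene segments each held a place called in 2 comparisons in the same direction. In the 49.5 kb segment of GI, Ox1 was hyper in both fields, at chr1:4295792-4296255 in the HN field and at chr1:4295801-4295946 in the NN field, with 146 bp shared. This is the pattern over lines and fields that PHYB had, but the segment has 8 locus numbers. The place in the HN field lies 44593 bp from the upper end of the segment, where the next listed locus is the number after GI. The segment also held a hypo-DMR of Ox1 in the NN field at chr1:4291367-4291580. In the 109.3 kb segment of ELF3, both lines were hyper in the HN field, WYG7 at chr6:2266075-2266325 and Ox1 at chr6:2266001-2266325, ending at the same base. ELF3 follows directly on the lower listed locus, LOC_Os06g05050, in number, and this place lay 32807 bp into the segment in WYG7. A further WYG7 hyper-DMR of the HN field, at chr6:2240269-2240394, lay 7001 bp into the segment.

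Of the genes that delay heading, PRR37 had 1 DMR in its 19.2 kb segment, hypo in Ox1 in the HN field at chr7:29611724-29612111. That segment has 2 locus numbers, of which PRR37 is the higher. The 24.0 kb segment of Ghd7 held 1 DMR, hypo in WYG7 in the NN field, 573 bp long at chr7:9157364-9157936. The 39.7 kb segment of DTH8, which encodes an NF-YB subunit, held DMRs in WYG7 only, all hyper. One place was called in both fields, at chr8:4323173-4323386 in the HN field and at chr8:4323172-4323374 in the NN field, with 202 bp shared. The other was at chr8:4338093-4338213 in the NN field. Ehd1, which these genes act on, had 1 DMR in its 24.4 kb segment, hyper in WYG7 in the NN field at chr10:17078932-17079125.

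PHYA and PHYC lay in sparse stretches of chromosome 3. The segment of PHYA was the longest, 249.8 kb with 33 locus numbers and no listed gene, and held no DMR in the HN field in either line. In the NN field it held 3 WYG7-DMRs, all hyper, and 2 Ox1-DMRs, both hypo. One place was called in both lines in opposite directions, hyper in WYG7 at chr3:29196921-29197025 and hypo in Ox1 at chr3:29196897-29197039. At another, the hyper-DMR of WYG7 at chr3:29107773-29108089 and the hypo-DMR of Ox1 at chr3:29108687-29108819 were 597 bp apart. The segment of PHYC was 79.9 kb long and held 1 DMR, hyper in Ox1 in the NN field at chr3:31025782-31025931.

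Loci around the genes were listed at differing rates. Around each gene, a range of 40 locus numbers in steps of 10 was taken, 20 on either side. Loci of this range in at least 1 table ranged from 1 around PHYA to 18 around Hd1, or 2.5% and 45.0% of 40. Listed loci numbered between the steps were counted too, which raises these shares, as it does those over all locus numbers. The share was below the 31.0% of all locus numbers around 7 genes and above it around 3, Hd1, Ghd7 (16 of 40) and Ehd1 (15 of 40). Around PHYB it was 10 of 40. Genes in no table were thus found both where neighbouring loci were often listed and where they were rarely listed. Counted by comparison against the 400 neighbouring numbers, the HN field tables held 61 (WYG7) and 62 (Ox1), and the NN field tables held 55 and 34. These are 15.25% and 15.5% for the HN field, beside 17.3% and 17.0% of all locus numbers. For the NN field they are 13.75% and 8.5%, beside 17.7% and 12.7%.

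**Figure D4:**
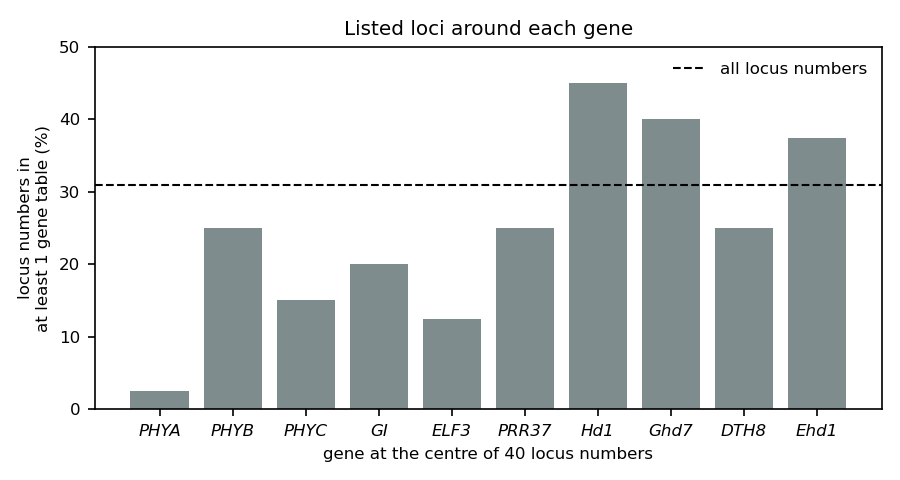
Loci in at least 1 gene table around each of the 10 genes (bars), as a percent of 40 locus numbers in steps of 10. The dashed line is the share over all locus numbers, and listed loci numbered between the steps are counted in both. The bars of Hd1, Ghd7 and Ehd1 stand above the line at 31.0% and the other 7 below it, with PHYA lowest at 2.5%.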

How the data were processed

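Per the paper's methods, the authors trimmed the bisulfite reads, used Bismark 0.9.0 for alignment to IRGSP-1.0 and called DMRs between 2 libraries with SMART, with limits on coverage, cytosines, length, difference in level and p-value. Genes whose body or 1 kb promoter overlapped a DMR made up the gene tables. Columns used in the authors' deposited lists are other values, namely positions in bp, with a direction or an MSU locus. Since no list states its reference library, hyper was taken as an increase in the LN library. The methods define it as an increase over a control group, which they do not name. The paper's results word the directions as changes with low compared with high parent seed N, and its hyper shares match those of the lists. Taking HN as the control follows this wording and the study's design. Directions set side by side between lists rest on this reading for each list. Annotation version and strand are not given in the sources used here.

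Lookups, overlaps (at least 1 bp, positions from 1 with both ends included) and counts were computed with Python 3.11.15 and numpy 2.4.6, and figures drawn with matplotlib 3.10.9. Overlap functions were tested on simulated data. All 10 genes were named. Of 32 pathway genes, written by hand (a further one is not reported here, for a reason unrelated to its values), the rule names those in 3 or 4 tables or with the pattern of a listed member, which gave none. Hd3a and OsELF3-2 were named after their values were seen, and the unlisted ones as examples. Members and lists were chosen with earlier results of these data known. The pairing of names with loci rests on textbook knowledge, since the paper's text gives no locus for these genes. RefSeq (ASM3414082v1) held 8 of the 10 and 16 of the 32 names on the chromosome of the locus, 0 on another, and the rest had no match by name. Segments and neighbourhoods of locus numbers were added after seeing the data. No sequence is shown, since no genome of this build was used.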

Additional observations from a re-analysis of the deposited data

Results flagged for a closer look

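Where the same stretch was called in opposite directions in groups that share a line or a field, it was taken up here. All such stretches lie in segments that hold genes without a given interval, and outside all listed gene intervals. None of the differences was tested, since each comparison has 1 library per condition.

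In the segment of PHYA, a stretch of 105 bp was hyper in WYG7 and hypo in Ox1, both in the NN field. In the segment of Hd1, a stretch of 113 bp was hypo in WYG7 and hyper in Ox1 in the HN field. Also in the segment of Hd1, a stretch of 167 bp was hypo in WYG7 in the HN field and hyper in WYG7 in the NN field. In all 3 stretches each direction is also that of the majority of DMRs in its list (hyper shares in the HN field of 45.9% (WYG7) and 75.4% (Ox1), and in the NN field of 64.5% and 33.7%), and the part of this in the results was not tested.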

How the results depend on the processing

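Of 10 alternatives, 7 left the values as they were. Most of these 7 could not have changed them, since both PHYB-DMRs are hyper, longer than 100 bp and wholly inside the interval. With DMRs under 200 bp left out, the listings fell from 2 to 1 and the DMRs of the genes from 2 to 1, since the PHYB-DMR of the NN field is 126 bp long, and the pathway listings fell from 2 to 0. The count of overlapping PHYB-DMR pairs stayed 1 when at least 50% of the shorter DMR had to be shared. It also stayed 1 with a gap of up to 100 bp allowed. Neither setting puts the pair to a test, since it shares 99.2% of the shorter DMR. Leaving out DMRs under 200 bp, which removes the NN field DMR of the pair, was not run for this count. Overlaps of at least 1 bp were counted for PHYB alone, the only 1 of the 10 genes with an interval in the tables. No paired analysis was possible because each condition has 1 library and the lists carry no values per library. The lists hold only regions past the authors' limits, so smaller differences were not detectable, and the depth at each gene is unknown.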
